A study of Homo sapiens with 2 samples.

Results

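Collagens are the most abundant proteins of the extracellular matrix, and this account follows all 44 collagen genes of the human genome that the files name, out of 36601 measured genes, across 4 cell classes of a differentiating heart cell culture. Members were every gene whose symbol reads COL, a number, A and a number, with nothing after it, so antisense transcripts and collagen-like genes with other names stayed out. The rule used gene names only, though it was set with earlier results of these data known.

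The culture came from HES2, an established human embryonic stem cell line, taken towards sinoatrial node-like pacemaker cells, which the labels abbreviate SANLPC. The sinoatrial node is the small patch of heart muscle that starts each beat, and it lies in a dense collagen sheath. Live single cells were stained with a barcoded antibody against CD34 (TotalSeq A0054), sorted with DAPI and run through 10x Genomics 3' version 3 chemistry, so that each droplet yielded transcripts and CD34 tags. The 2 samples, an RNA library and a CD34 antibody tag library with 1 sample each, are 2 readouts of the same cells: 14808 of the 14829 barcodes held UMIs of both. A UMI is a molecular barcode that counts 1 captured transcript. All groups below share the line, the culture and the protocol, and no altered genotype, added agent or day of differentiation is given in the sources used here. With 1 culture of 1 line there is no replicate, so no test was run. Intervals are exact 95% intervals of counting error only.

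A collagen is built from 3 chains wound into a triple helix, and each gene encodes 1 chain, so a given collagen may need the products of 1, 2 or 3 genes. Fibrillar collagens (types I, II, III, V, XI and relatives) make the load-bearing cords of connective tissue. Type IV collagens form the sheet-like network of basement membranes, which wrap muscle cells and underlie epithelia. Type VI makes beaded filaments around cells, and FACIT collagens (IX, XII, XIV, XVI, XXI and others) sit on the surface of fibrils. In the heart, fibroblasts are the main known source of types I and III.

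Cells were kept with at least 1000 genes, at most 25% mitochondrial UMIs and at most 35000 RNA UMIs, which left 11211 of the 14829 barcodes with 914911 collagen UMIs. Cardiomyocytes (5516 cells, median 16209 RNA UMIs) carried the muscle gene TNNT2 at 2000 CPM or more, a UMI count scaled to the RNA total of the cell or class. The other classes had TNNT2 under 1000 CPM and exactly 1 set of marker UMIs. Epithelial-like cells (3937, median 17358) had at least 5 of VTCN1, GATA3, CLDN4 and WNT6 together. Epicardial-like cells (234, median 20975.5) had at least 3 of UPK3B, PITX1, DKK2 and SERPINE3. Fibroblast-like cells (444, median 15934) had at least 5 of DLK1, LAMP5 and C7. Left out of the classes were 307 cells that met more than 1 marker rule, 324 that met none and 449 between the TNNT2 limits.

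The class names were set against marker genes that the rules did not use. All 7 cardiomyocyte markers besides TNNT2 reached 10 CPM in cardiomyocytes, with a summed level of 29453 CPM against 637 to 977 CPM in the other classes. All 7 other epithelial markers did so in epithelial-like cells (9493 CPM summed, 780 to 4051 CPM elsewhere). Of 7 other epicardial markers, 5 did so in epicardial-like cells (341 CPM, 36.1 to 105 CPM elsewhere), where WT1 reached 87.8 CPM. WT1, ALDH1A2, BNC1 and MSLN were highest in epicardial-like cells, but the other markers of this list were not. TBX18, which also passed 10 CPM, stood at 19.2 CPM there against 85.6 CPM in cardiomyocytes. UPK1B was at 5.73 CPM in epicardial-like against 7.82 CPM in epithelial-like cells. TCF21 stood at 6.14 CPM in epicardial-like cells and was highest in fibroblast-like cells. All 7 other fibroblast markers reached 10 CPM in fibroblast-like cells, summing to 2638 CPM, but that list also summed to 1963 CPM in epicardial-like and 1233 CPM in epithelial-like cells, against 174 CPM in cardiomyocytes. Decorin (DCN) and lumican (LUM), small proteoglycans that bind collagen fibrils, did not mark fibroblast-like cells. DCN was highest in epicardial-like cells at 1221 CPM and LUM in epithelial-like cells at 692 CPM, against 750 and 237 CPM in fibroblast-like cells. Fibroblast-like cells also held the smooth muscle gene ACTA2 at 2435 CPM, close to the 2160 CPM of cardiomyocytes. Of the other smooth muscle markers, TAGLN and RGS5 were higher than in cardiomyocytes, TAGLN at 1257 against 337 CPM. MYH11 (27.3 against 676 CPM) and CNN1 (114 against 265 CPM) were lower. The neuronal genes STMN2 and TUBB3 stood at 147 and 98.8 CPM in fibroblast-like cells and at 97.4 and 70.2 CPM in epicardial-like cells. The other neural markers, SOX10, SOX2 and ELAVL3, were at 0.272 CPM or less in fibroblast-like cells. The endothelial genes PECAM1 and CDH5 and the blood gene PTPRC had 3, 0 and 2 UMIs in all 4 classes together. The 6 endothelial markers summed to 68.8 CPM in epicardial-like and 25 CPM in fibroblast-like cells, and to 2.5 CPM or less elsewhere. The part of these other markers in the collagen values was not tested.

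Possible doublets, droplets with more than 1 cell, touched the cardiomyocyte values and are given beside them. Among the cardiomyocytes, 509 (9.23%) also met a marker rule of another class, 421 of them the epithelial one, and 92.3% of these 509 were called doublets by Scrublet. Their median depth was 24647 RNA UMIs, against 15721 RNA UMIs and 2.26% called among the other 5007. Scrublet called 10.6% of cardiomyocytes but only 1.80% to 3.42% of the other classes. Leaving the calls out kept 4933 cardiomyocytes, and values without them are given beside many of the cardiomyocyte results below. Of the 26 collagens compared below, the same 12 moved by over 1.5 times in each ratio to cardiomyocytes, all upwards: COL1A1, COL1A2, COL3A1, COL5A1, COL5A2, COL6A3, COL8A1, COL8A2, COL12A1, COL15A1, COL25A1 and COL26A1. None moved that far in the 3 comparisons without cardiomyocytes. Transcripts of 1 class were also found at low levels in the others. The muscle transcript MYL7 stood at 12343 CPM in cardiomyocytes and at 260 to 356 CPM in the other classes.

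Fibroblast-like cells devoted 2.49% of their RNA to collagens (95% interval 2.48% to 2.5%), the largest share of the 4 classes. Epicardial-like cells followed at 0.736% (0.728% to 0.743%), epithelial-like cells at 0.489% (0.487% to 0.490%) and cardiomyocytes at 0.211% (0.210% to 0.212%). The cardiomyocyte share was 0.176% without Scrublet calls. Per cell, the median share was 2.38% in fibroblast-like cells (5th to 95th percentile 0.765% to 3.97%) and 0.153% in cardiomyocytes (0.0735% to 0.456%). Under 1 in 100 fibroblast-like cells (0.901%) lay below the cardiomyocytes' 95th percentile. Epicardial-like and epithelial-like cells overlapped broadly, with medians of 0.531% and 0.471%.

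What these UMIs were spent on separated cardiomyocytes from the rest. Fibrillar chains took 73.7%, 74.4% and 75.3% of collagen UMIs in epithelial-like, epicardial-like and fibroblast-like cells, but 34.1% in cardiomyocytes and 22.5% there without Scrublet calls. Basement membrane chains took 33.6% in cardiomyocytes (41.3% without Scrublet calls) and 6.68% to 8.56% elsewhere. Beaded filament chains held 13% in cardiomyocytes and 11.5% in fibroblast-like cells, against 4.30% in epicardial-like and 1.06% in epithelial-like cells. FACIT chains were most prominent in epithelial-like cells, at 12.4% against 4.85% to 7.99% in the other classes. The multiplexins, basement membrane collagens that also carry sugar chains, made up 12.4% in cardiomyocytes and 1.15% to 3.85% in the others.

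**Figure D1:**
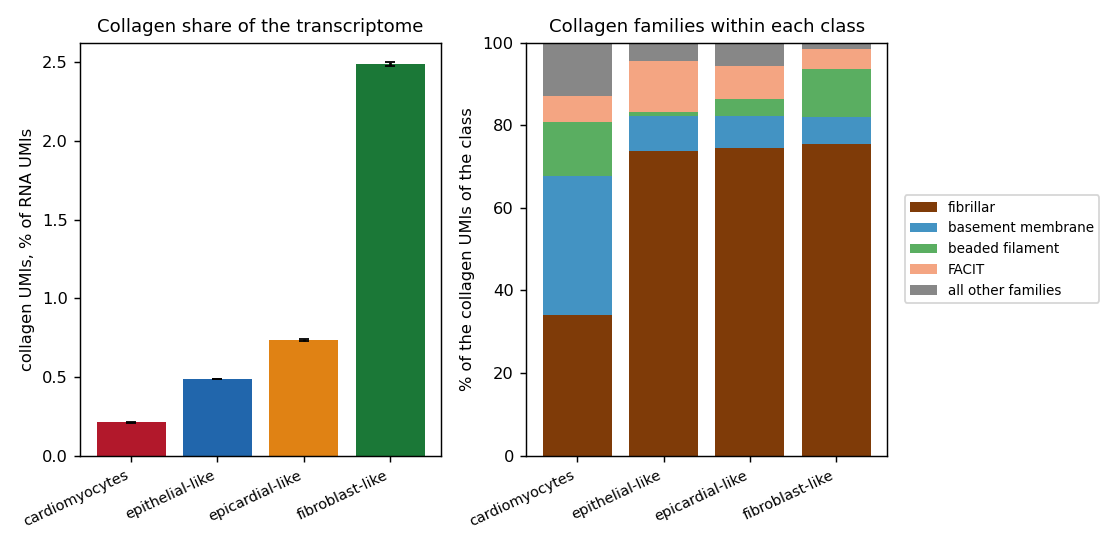
Left: collagen UMIs as a percentage of all RNA UMIs in each class, with exact 95% intervals of counting error. Right: how the collagen UMIs of each class divide among families. The fibroblast-like bar stands at 2.49%, and the cardiomyocyte column differs from the other 3 in its 34.1% fibrillar and 33.6% basement membrane parts.

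For single genes, 26 of the 44 collagens averaged at least 10 CPM over the 4 classes, each class weighted equally, and are compared below. A gene could meet this mean through 1 class alone. COL25A1 and COL15A1 were under 10 CPM outside fibroblast-like cells, and COL8A2 outside epicardial-like cells. Their place among the higher genes of those classes thus follows in part from the floor. COL11A2 and COL9A1, highest in cardiomyocytes, did not meet it and are not in the counts. The other 18 are given by counts. A 3' library counts 1 tag per transcript molecule whatever the gene's length, so CPM values of different genes compare numbers of molecules. In bulk sums like these, fewer expressing cells and less RNA per cell cannot be told apart, so the share of cells with a UMI follows.

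Type III collagen was the most abundant collagen transcript in all 4 classes. COL3A1 (chr2:188974373-189012746 on GRCh38.p14), whose product forms a homotrimer in stretchable tissue, stood at 331 CPM in cardiomyocytes, 2549 in epithelial-like, 3223 in epicardial-like and 6814 CPM in fibroblast-like cells, where it ranked 8 among all genes. No interval overlapped another, and the cardiomyocyte level was 148 CPM without Scrublet calls, below COL18A1, COL4A5, COL4A6, COL6A1 and COL4A2. COL1A1 and COL1A2, the 2 chains of type I collagen, set fibroblast-like cells apart further. COL1A1 was at 134 CPM in cardiomyocytes, 131 in epithelial-like, 1072 in epicardial-like and 6118 CPM in fibroblast-like cells. COL1A2 was at 109, 197, 701 and 4609 CPM in the same order. Cardiomyocytes held 80.0 CPM of COL1A1 and 64.0 CPM of COL1A2 without Scrublet calls.

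Epithelial-like cells thus carried type III with little type I. They had 19.5 COL3A1 UMIs per COL1A1 UMI (19.0 to 19.9), against 1.11 in fibroblast-like, 3.01 in epicardial-like cells and 2.47 in cardiomyocytes (1.85 without Scrublet calls). Type I collagen is usually 2 alpha-1 chains and 1 alpha-2 chain, and the transcript ratio COL1A1 to COL1A2 was 1.33 (1.31 to 1.35) in fibroblast-like, 1.53 in epicardial-like and 1.23 in cardiomyocytes. It was 0.663 (0.646 to 0.681) in epithelial-like cells, the one class with more COL1A2 than COL1A1.

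Type V collagen seeds fibrils of types I and III and limits their width. COL5A1 stood at 29.9 CPM in cardiomyocytes (9.84 without Scrublet calls), 321 in epithelial-like, 99.9 in epicardial-like and 469 CPM in fibroblast-like cells. COL5A2, which lies 19151 bases from COL3A1 on chromosome 2, was at 52.9 (31.1 without Scrublet calls), 328, 220 and 650 CPM. Epithelial-like cells had nearly equal counts of both chains (0.981 COL5A1 per COL5A2), and the ratio was 0.454 to 0.721 in the other classes. In cardiomyocytes it was 0.565, and 0.317 (0.292 to 0.344) without Scrublet calls. COL5A3, a rarer chain, had 112 UMIs in fibroblast-like cells and 7, 1 and 4 in cardiomyocytes, epithelial-like and epicardial-like cells.

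The cartilage-type fibrillar genes went different ways. COL11A1, a regulator of fibril diameter, was highest in epicardial-like cells at 121 CPM, with 44.6 CPM in fibroblast-like cells, 3.58 in cardiomyocytes and 0.980 CPM in epithelial-like cells. COL2A1, the main cartilage collagen, ran the other way, at 65.8 CPM in epithelial-like cells, 31.6 in cardiomyocytes, 22.9 in epicardial-like and 3.53 CPM in fibroblast-like cells. COL11A2 was mostly a cardiomyocyte transcript, at 23.9 CPM against 1.02 to 3.04 CPM elsewhere. Of the chondrocyte genes, ACAN and MATN1 stood at 1.49 CPM or less in every class, and SOX9 was at 26.4 CPM in cardiomyocytes, 45.7 in epithelial-like and 21.7 CPM in fibroblast-like cells. HAPLN1, which links proteoglycans to hyaluronan, reached 272 CPM in epithelial-like cells. COL27A1 was low throughout, from 3.23 CPM in epithelial-like to 26.4 CPM in fibroblast-like cells.

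**Figure D2:**
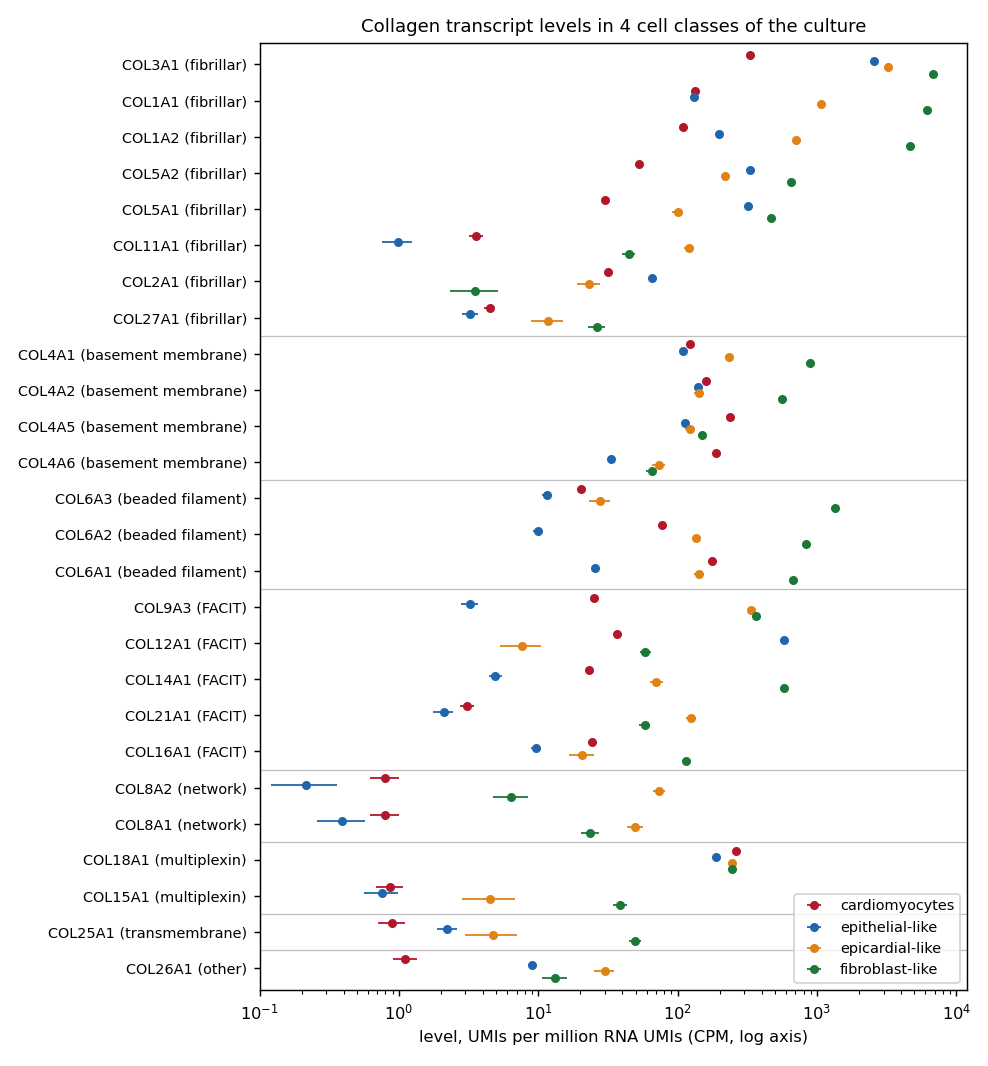
Level of the 26 collagens with a mean of at least 10 CPM, on a log axis, in each of the 4 classes; points are CPM from summed UMIs and bars exact 95% intervals of counting error. Fibroblast-like cells lie furthest right for most fibrillar and all beaded filament genes, epithelial-like cells for COL12A1 and COL2A1, and cardiomyocytes for COL4A5 and COL4A6.

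The 6 type IV genes sit in 3 pairs whose members are read in opposite directions from neighbouring starts, and only certain trios of their chains assemble. The DNA between the annotated genes is shown for COL4A1 with COL4A2 and for COL4A4 with COL4A3. COL4A1 and COL4A2, which make the common basement membrane trimer, are 126 bases apart on chromosome 13 (chr13:110307158-110307283, plus strand, intergenic). COL4A4 and COL4A3 are 135 bases apart at their outermost annotated starts on chromosome 2 (chr2:227164489-227164623, plus strand, between the annotated genes). The start that RefSeq selects for COL4A4 is 418 bases from that of COL4A3 and lies outside the stretch printed. COL4A5 starts on the X chromosome 379 bases from the nearest COL4A6 start, and the 250 bases before it are given (chrX:108439588-108439837, plus strand). Sequences are RefSeq's on GRCh38.p14, 5′ to 3′, and capitals mark CCAAT and GGGCGG on either strand (ATTGG and CCGCCC on the other).
COL4A1-COL4A2 interval: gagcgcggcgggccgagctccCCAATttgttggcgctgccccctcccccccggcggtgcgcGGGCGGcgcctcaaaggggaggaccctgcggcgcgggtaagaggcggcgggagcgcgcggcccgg
COL4A4-COL4A3 interval: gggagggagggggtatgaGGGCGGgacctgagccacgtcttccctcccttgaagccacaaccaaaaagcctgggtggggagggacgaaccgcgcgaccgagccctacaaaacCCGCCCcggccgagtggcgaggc
COL4A5: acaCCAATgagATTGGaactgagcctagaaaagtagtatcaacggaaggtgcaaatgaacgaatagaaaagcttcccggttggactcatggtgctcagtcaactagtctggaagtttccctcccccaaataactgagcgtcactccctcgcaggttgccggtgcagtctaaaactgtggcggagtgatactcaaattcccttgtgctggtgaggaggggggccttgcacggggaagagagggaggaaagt
The COL4A1-COL4A2 interval holds CCAAT and also, elsewhere in it, 1 GC box, GGGCGG, both on the strand printed. The COL4A4-COL4A3 interval has GGGCGG on each strand without the other motif. The COL4A5 stretch has CCAAT on each strand instead. Over the 250 bases before each start, CCAAT was found on either strand in 12 of 44 windows of the 32 collagen symbols with a RefSeq window, against 32.0% of all 35116 windows. GGGCGG was in 24 of the 44, against 42.6% of all windows, and TATAAA, searched on both strands, in 8 of the 44, against 10.7%. A match is a description of letters, not of a bound site.

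Each pair had its own pattern over the classes. COL4A1 and COL4A2 were led by fibroblast-like cells, at 888 and 559 CPM. COL4A1 was at 122 CPM in cardiomyocytes, 109 in epithelial-like and 232 CPM in epicardial-like cells, and COL4A2 at 161, 140 and 141 CPM. Across the shared interval the balance differed: 0.761 COL4A1 UMIs per COL4A2 UMI in cardiomyocytes (0.743 to 0.780) and 0.778 in epithelial-like cells, but 1.64 in epicardial-like (1.5 to 1.81) and 1.59 in fibroblast-like cells (1.53 to 1.65).

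COL4A5 and COL4A6, the pair of chains in the basement membrane around smooth muscle, were instead highest in cardiomyocytes. COL4A5 stood at 236 CPM there, 112 in epithelial-like, 123 in epicardial-like and 149 CPM in fibroblast-like cells. COL4A6 was at 189, 33.1, 72.9 and 64.9 CPM. Neither cardiomyocyte level depended on the possible doublets, with 246 and 200 CPM without Scrublet calls. COL4A4 and COL4A3, which join COL4A5 in kidney and lung membranes, were mostly epithelial-like transcripts. COL4A4 had 1392 UMIs (20.1 CPM) and COL4A3 240 UMIs (3.46 CPM) in epithelial-like cells. COL4A4 had 3 UMIs in epicardial-like and 5 in fibroblast-like cells, and COL4A3 had 0 and 1, where 0 allows up to 0.614 CPM. Summed over the class, epithelial-like cells had 5.80 COL4A4 UMIs per COL4A3 UMI (5.05 to 6.68).

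Type VI collagen separated fibroblast-like cells from the other 3 classes. It needs COL6A1, COL6A2 and 1 long chain, usually COL6A3. COL6A3 stood at 20.4 CPM in cardiomyocytes (11.4 without Scrublet calls), 11.5 in epithelial-like, 27.6 in epicardial-like and 1351 CPM in fibroblast-like cells. COL6A2 was at 77.5, 9.94, 136 and 828 CPM, and COL6A1 at 175, 25.6, 142 and 673 CPM. COL6A1 and COL6A2 lie 93063 bases apart on chromosome 21, while COL6A3 is alone on chromosome 2.

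The balance of the 3 chains differed between classes. For each COL6A2 UMI there were 1.63 COL6A3 UMIs in fibroblast-like cells (1.58 to 1.68), 0.263 in cardiomyocytes (0.250 to 0.276, or 0.153 without Scrublet calls), 0.203 in epicardial-like cells (0.167 to 0.245) and 1.15 in epithelial-like cells, where both genes were low. COL6A1 exceeded COL6A2 in cardiomyocytes (2.26 per COL6A2 UMI) and epithelial-like cells (2.58) and was below it in fibroblast-like cells (0.813). Epithelial-like cells had a UMI of COL6A3 in 4.57% of cells after thinning to 5000 UMIs. The alternative long chains were rare: COL6A6 reached 16.7 CPM in fibroblast-like cells and COL6A5 had at most 23 UMIs in a class.

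The COL6A3 start region is shown beside that of COL12A1. With all cardiomyocytes kept, these genes had the highest ratios to cardiomyocytes in fibroblast-like and epithelial-like cells. Without Scrublet calls the COL25A1 ratio exceeded that of COL6A3 in fibroblast-like cells. Both are 250 bases directly before the RefSeq start on the minus strand, outside any annotated gene, at chr2:237414165-237414414 and chr6:75206054-75206303 (GRCh38.p14). Capitals mark the same letters as above.
COL6A3: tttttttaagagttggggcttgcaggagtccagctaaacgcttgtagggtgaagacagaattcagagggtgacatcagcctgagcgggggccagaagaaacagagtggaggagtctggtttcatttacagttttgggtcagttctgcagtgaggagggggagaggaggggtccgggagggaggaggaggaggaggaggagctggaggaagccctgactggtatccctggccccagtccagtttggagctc
COL12A1: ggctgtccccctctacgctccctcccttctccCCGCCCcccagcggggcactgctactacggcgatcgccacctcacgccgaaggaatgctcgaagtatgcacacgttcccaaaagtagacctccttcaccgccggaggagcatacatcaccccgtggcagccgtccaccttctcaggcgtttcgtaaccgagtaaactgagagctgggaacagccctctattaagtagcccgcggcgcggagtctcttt
COL6A3 holds none of the 3 motifs in this window, and COL12A1 holds 1 GGGCGG on the other strand.

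COL12A1, a FACIT collagen of dense tissue that bridges fibrils, was the epithelial-like collagen. It stood at 583 CPM in epithelial-like cells (577 to 589), 58.7 in fibroblast-like, 37.0 in cardiomyocytes and 7.57 CPM in epicardial-like cells. The cardiomyocyte level was 8.56 CPM without Scrublet calls. After thinning, 175 cardiomyocytes (3.35%) with 2 or more COL12A1 UMIs held 62.1% of the class's COL12A1 UMIs, and 92.0% of them were Scrublet calls. They had 311 CPM of CLDN4 against 24.9 CPM in the other cardiomyocytes.

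Of the other FACIT genes, COL14A1, COL9A2, COL9A3, COL16A1, COL21A1 and COL22A1 were highest in fibroblast-like or epicardial-like cells, and COL9A1 in cardiomyocytes. COL14A1, which like COL12A1 coats fibrils, was at 23.2 CPM in cardiomyocytes, 4.91 in epithelial-like, 70.0 in epicardial-like and 580 CPM in fibroblast-like cells, so that COL12A1 and COL14A1 had opposite leaders. COL9A3 was at similar levels in epicardial-like (338 CPM, 322 to 355) and fibroblast-like cells (366 CPM, 352 to 380), with 25 in cardiomyocytes and 3.21 CPM in epithelial-like cells. Type IX collagen needs COL9A1 and COL9A2 as well. Those had 21 and 31 UMIs in epicardial-like and 29 and 145 in fibroblast-like cells, so COL9A3 exceeded COL9A1 by 78.7 times (51.3 to 128) and 92.8 times (64.5 to 139). Cardiomyocytes held COL9A1 at 20.0 CPM and COL9A3 at 25 CPM, in a ratio of 1.25 COL9A3 per COL9A1 (1.01 without Scrublet calls). COL21A1 was highest in epicardial-like cells at 124 CPM, with 58.0 CPM in fibroblast-like cells and 3.10 CPM or less in the others. COL16A1 was at 115 CPM in fibroblast-like cells and 9.56 to 24.4 CPM elsewhere.

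Type VIII collagen, a network-forming collagen of vessel walls and the cornea, belonged to epicardial-like cells. COL8A2 stood at 73.7 CPM there, 6.38 in fibroblast-like cells, 0.794 in cardiomyocytes and 0.216 CPM in epithelial-like cells. COL8A1 was at 49.3, 23.6, 0.794 and 0.389 CPM in that order. Without Scrublet calls the cardiomyocyte levels were 0.307 CPM for COL8A2 and 0.332 CPM for COL8A1. Of the COL8A1 UMIs of epicardial-like cells, 84.2% were in the top 10% of cells, against 36.9% for COL8A2, in counts before thinning. Summed over the class, epicardial-like cells had 1.49 COL8A2 UMIs per COL8A1 UMI (1.27 to 1.77), and fibroblast-like cells 0.270 (0.191 to 0.375). The 2 chains did not vary together among epicardial-like cells. After thinning, Spearman's rho was -0.02, and 7 of 232 cells held both.

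COL18A1, the source of endostatin and a basement membrane component, was the most even of the 26 collagens. It ranged from 187 CPM in epithelial-like cells to 262 CPM in cardiomyocytes, with 244 in epicardial-like and 247 CPM in fibroblast-like cells. The intervals of the last 2 overlapped (230 to 258 and 236 to 259 CPM). Its relative COL15A1, which anchors muscle and vessel basement membranes, was at 38.4 CPM in fibroblast-like cells and 4.50 CPM or less elsewhere. COL25A1, a membrane-spanning collagen, was at 49.3 CPM in fibroblast-like cells and 4.71 CPM or less elsewhere. COL26A1 was highest in epicardial-like cells at 29.9 CPM, then fibroblast-like at 13.2, epithelial-like at 9.08 and cardiomyocytes at 1.11 CPM.

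Below the 10 CPM mean lay 18 genes. Besides those named above, COL7A1, the anchoring fibril collagen under skin epithelium, had 709 of its UMIs in epithelial-like cells (10.2 CPM) and 3.40 CPM or less elsewhere. COL22A1 was at 16.0 CPM in epicardial-like cells, COL9A2 at 19.7 CPM and COL13A1 at 9.10 CPM in fibroblast-like cells. COL10A1, COL17A1, COL19A1, COL20A1 and COL28A1 stayed at or below 0.409 CPM in every class, and COL23A1 and COL24A1 at or below 6.52 and 3.40 CPM.

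Fibroblast-like cells differed from cardiomyocytes in most collagens. Of the 26 genes, 21 were at least 2-fold higher and 2 at most 0.5-fold, COL2A1 at 0.112 (0.0729 to 0.164) and COL4A6 at 0.343 (0.313 to 0.376). Over all 9402 genes with the same mean level, 12.6% were higher and 11.3% lower by these limits. The median log2 ratio was 3.60 over the collagens and 0.06 over all genes. COL6A3 had the highest ratio, 66.4 (63.2 to 69.8), followed by COL25A1 at 55.3, COL1A1 at 45.6 (44.7 to 46.6), COL15A1 at 44.7 and COL1A2 at 42.3. COL25A1 and COL15A1 met the 10 CPM mean only through fibroblast-like cells. COL4A5 (0.631), COL18A1 (0.944) and COL12A1 (1.59) lay between the limits. Without Scrublet calls the ratio of COL6A3 was 120, of COL1A1 76.9, of COL3A1 46.0 in place of 20.6, of COL1A2 72.3, of COL25A1 171, of COL15A1 83.9, of COL5A1 48.0 in place of 15.7, of COL5A2 21.0 in place of 12.3, and of COL12A1 6.82, past the limit.

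Epicardial-like cells shared part of that pattern. Here 15 collagens were higher and 2 lower, against 12.6% and 11.5% of all genes, with a median log2 ratio of 1.67 against 0.03. Both network genes led, COL8A2 at 92.8 (72.0 to 121) and COL8A1 at 62.1 (47.6 to 81.9), then COL21A1 at 40.1, COL11A1 at 33.7 and COL26A1 at 26.9. COL8A2 met the 10 CPM mean only through epicardial-like cells. Type VI stayed near cardiomyocyte levels, with ratios of 0.812 for COL6A1, 1.76 for COL6A2 and 1.36 for COL6A3, the last 2.37 without Scrublet calls. The 2 lower genes were COL4A6 (0.385) and COL12A1 (0.205), and COL12A1 moved to 0.846 without Scrublet calls. Leaving the calls out raised COL8A2 to 238, COL8A1 to 154, COL3A1 from 9.72 to 21.5, COL26A1 to 89.1, COL1A1 from 7.99 to 13.3, COL5A1 from 3.34 to 9.85 and COL5A2 from 4.16 to 7.02.

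Epithelial-like cells split the family. The comparison had 7 collagens higher and 10 lower than in cardiomyocytes, against 14.2% and 13.2% of all genes, with a median log2 ratio of -0.48 against 0.11. Higher were COL12A1 at 15.8 (15.2 to 16.3), COL5A1 at 10.8, COL26A1 at 8.18, COL3A1 at 7.69 (7.6 to 7.79), COL5A2 at 6.20, COL25A1 at 2.49 and COL2A1 at 2.08. Lower were COL6A2 and COL9A3, each at 0.128, COL6A1 at 0.146, COL4A6 at 0.175, COL14A1 at 0.212, COL11A1 at 0.274, COL16A1 at 0.393 and COL4A5 at 0.474. COL8A2 (0.272) and COL8A1 (0.490) also counted as lower on 15 and 27 epithelial-like UMIs. They were at 0.578 and 1.16 without Scrublet calls, so COL8A1 changed direction. Leaving the calls out also raised the ratios of COL12A1 to 68.4, COL5A1 to 32.8, COL26A1 to 27.3, COL3A1 to 17.3, COL5A2 to 10.6 and COL25A1 to 7.64, and moved COL1A2 from 1.81 to 3.06, past the limit. The median shift of all genes in this comparison reached 0.11 on the log2 scale, and COL2A1 fell below 2-fold when ratios were divided by it.

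**Figure D3:**
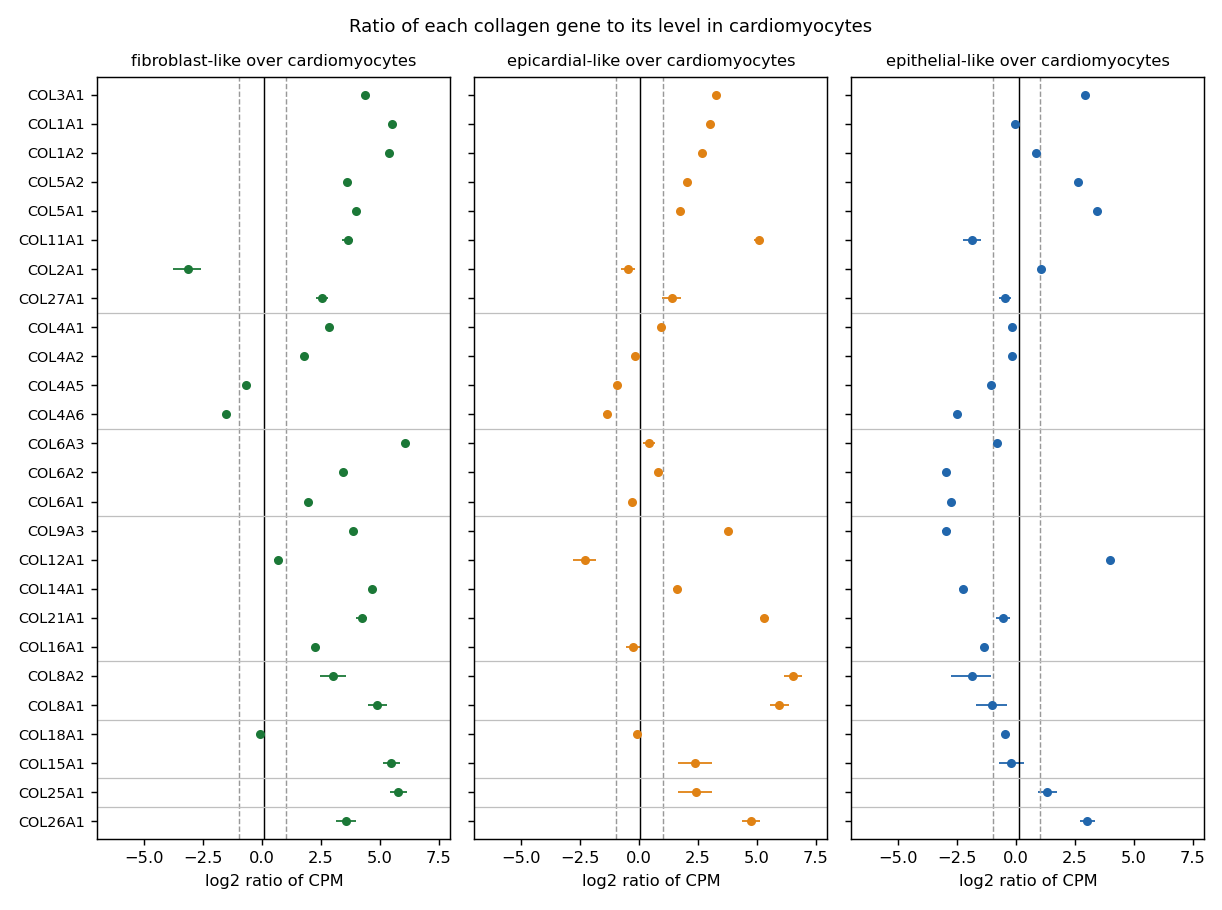
Log2 ratio of CPM to cardiomyocytes for the 26 collagens in fibroblast-like, epicardial-like and epithelial-like cells, with exact 95% intervals of counting error. Dashed lines mark 2-fold, and the solid line is the median of all 9402 genes. Most points lie right of the upper limit in the first panel, while the epithelial-like panel has COL12A1 at 15.8-fold and the type VI genes on the left.

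Fibroblast-like and epicardial-like cells were also set against each other and against epithelial-like cells. Over epicardial-like cells, fibroblast-like cells had 16 collagens higher and 6 lower, with 7.86% and 6.89% of all genes as background. COL6A3 led at 48.9 (41.3 to 58.4), then COL25A1 at 10.5, COL15A1 at 8.54 and COL14A1 at 8.29, with COL1A2 at 6.57 and COL1A1 at 5.71. The lower ones were COL8A2 (0.0867), COL2A1 (0.154), COL11A1 (0.370), COL26A1 (0.441), COL21A1 (0.467) and COL8A1 (0.479). When the 307 cells of more than 1 rule were kept in each class they met, the counts were 10 and 2 (background not computed). The COL12A1 ratio then went from 7.75-fold higher to a log2 ratio of -0.37. Over epithelial-like cells, 18 collagens were higher and 2 lower in fibroblast-like cells (11.8% and 9.96% of all genes) and 18 higher and 3 lower in epicardial-like cells (10.3% and 9.23%). COL12A1 and COL2A1 were lower in both, with COL12A1 at 0.101 and 0.0130, and COL5A1 was lower in epicardial-like cells at 0.311. The 6 comparisons of classes share their cells, so their counts are not independent.

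Shares of cells with a UMI, after each cell was thinned to 5000 UMIs, showed how widespread each transcript was. COL3A1 was found in 99.8% of epithelial-like, 99.6% of epicardial-like and 99.5% of fibroblast-like cells, and in 40.7% of cardiomyocytes. COL12A1 was found in 86.9% of epithelial-like cells (85.8% to 87.9%) but 17.5%, 8.93% and 4.74% of fibroblast-like cells, cardiomyocytes and epicardial-like cells. Its share among cardiomyocytes was no higher than the 9.66% with a CLDN4 UMI, and the source of these COL12A1 UMIs was not tested. COL6A2 and COL6A3 were found in 95.6% and 89.5% of fibroblast-like cells. COL4A5 and COL4A6 were found in 65.1% and 56.2% of cardiomyocytes, COL18A1 in 69.3%. Epicardial-like cells were mixed for their leading genes, with COL9A3 in 78.9%, COL11A1 in 37.9%, COL21A1 in 34.9%, COL8A2 in 27.2% and COL8A1 in 11.6%.

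**Figure D4:**
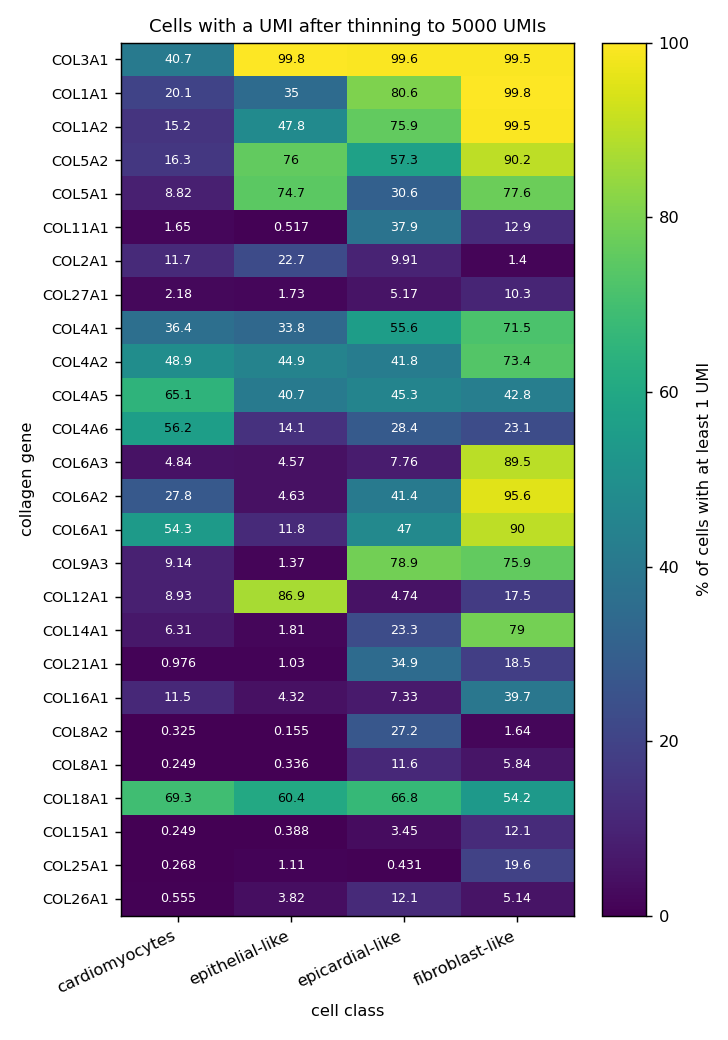
Percentage of cells in each class with at least 1 UMI of each of the 26 collagens after thinning to 5000 RNA UMIs per cell (5227 cardiomyocytes, 3870 epithelial-like, 232 epicardial-like and 428 fibroblast-like cells). COL3A1 is near 100% in 3 columns, COL12A1 stands out at 86.9% in the epithelial-like column, and COL4A5 and COL4A6 are highest in cardiomyocytes.

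Collagen pairs varied together among fibroblast-like cells to different degrees, whether or not they share a trimer. Over the 428 thinned cells, Spearman's rho was 0.77 between COL1A1 and COL1A2, 0.67 between COL4A1 and COL4A2 and 0.44 between COL6A1 and COL6A2. The partner pairs COL6A3 with COL6A2 (0.16) and COL4A5 with COL4A6 (0.15) were lower. Pairs from different collagens reached 0.69 (COL3A1 and COL1A1) and 0.52 (COL1A1 and COL6A3). These are descriptions over cells of 1 library at equal depth. In epicardial-like cells (232) rho was 0.67 for COL1A1 and COL1A2 and 0.23 for COL4A1 and COL4A2. COL4A1 was more uneven among fibroblast-like cells than COL6A2. The top 10% of cells held 48.0% of COL4A1 UMIs and 27.3% of COL6A2 UMIs, in counts before thinning, at unequal depth.

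Some cardiomyocytes carried fibrillar collagens well above the rest. After thinning, 196 of 5227 (3.75%) had 3 or more COL1A1 UMIs and held 66.9% of the class's COL1A1 UMIs. They had COL1A2 at 1449 CPM and COL3A1 at 1860 CPM, against 38.2 and 215 CPM in the other 5031. DLK1 stood at 351 CPM against 7.47 CPM and the matrix calcification inhibitor MGP at 1448 CPM against 47.1 CPM, with TNNT2 at 3824 CPM against 7063 CPM. Scrublet called 43.9% of these 196 cells and 9.62% of the others, and the part of doublets among the uncalled cells was not tested. COL4A5 was alike in both, at 211 and 238 CPM.

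The tag for CD34, a surface sialomucin, divided cardiomyocytes into 1380 CD34-high cells (279 or more tag UMIs, the upper quartile) and 1403 CD34-low cells (45 or fewer). The limits cut a continuous range, with 161 and 439 cells within 10% of them, and the median depths were 17064.5 and 14292 RNA UMIs. Of the 20 collagens that averaged 10 CPM over both groups, none was 2-fold higher and 1 was lower, against 0.573% and 0.865% of 8903 genes. That gene was COL14A1. Its level was 7.62 CPM with high tag and 31.3 CPM with low tag, a ratio of 0.244 (0.206 to 0.287). The median log2 ratio was -0.23 over the 20 and 0.01 over all genes.

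Fibrillar genes moved further once possible doublets were left out. COL1A1 went from a ratio of 0.699 (0.661 to 0.740) to 0.270, COL1A2 from 0.664 to 0.214, COL3A1 from 0.852 to 0.388 and COL6A3 from 0.771 to 0.330. Without Scrublet calls, COL14A1, COL1A1, COL1A2, COL3A1 and COL6A3 all stood below 0.5, and 4 of them met the 10 CPM floor, against 0.615% higher and 1.24% lower of all genes. Leaving out the 509 cells that met a marker rule gave 5 lower, against 0.581% and 1.14% of genes. Without Scrublet calls, COL5A1 passed from 1.22 to 0.726 (0.589 to 0.894) and so changed direction. COL12A1 passed from 1.34 to 0.856, with an interval that included 1 (0.690 to 1.06). Both genes were under the 10 CPM floor in that set. The basement membrane genes COL4A1, COL4A2, COL4A5 and COL4A6 moved less than the type I and III genes and kept their direction. COL4A5 and COL4A6 were slightly higher in CD34-high cells, at 1.13 (1.08 to 1.17) and 1.27 (1.22 to 1.33), and 1.16 and 1.32 without Scrublet calls. COL4A1 and COL4A2 were lower, at 0.681 (0.645 to 0.719) and 0.715. Without the calls these were 0.595 (0.560 to 0.632) and 0.680. COL2A1 (1.5, 1.35 to 1.67) and COL9A1 (1.47, 1.29 to 1.69) were the highest ratios.

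**Figure D5:**
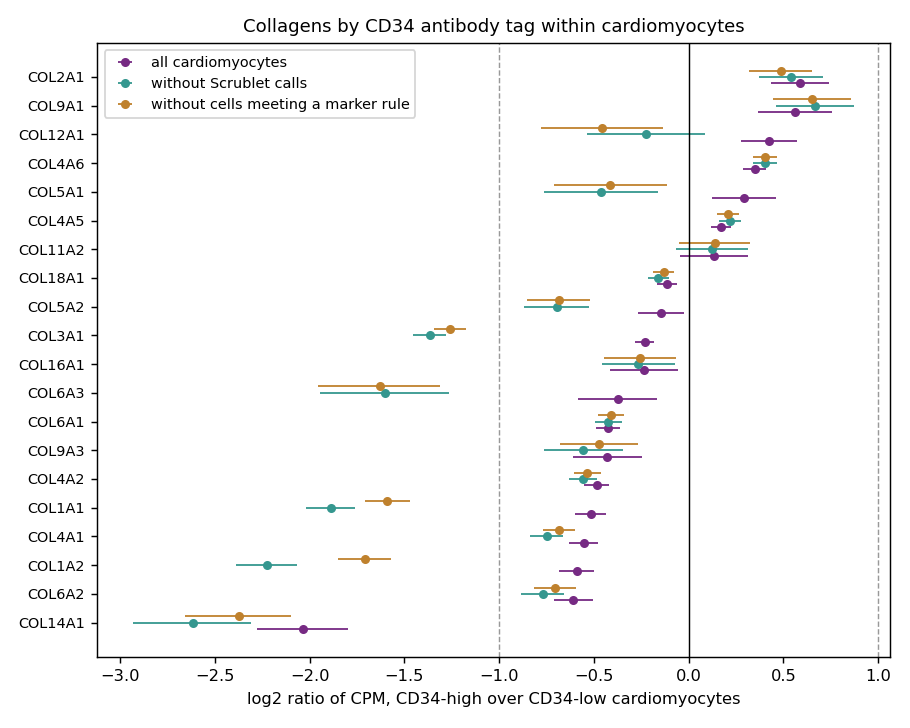
Log2 ratio of CPM between CD34-high and CD34-low cardiomyocytes for the 20 collagens at 10 CPM or more, in all cardiomyocytes, without Scrublet calls and without cells that meet another marker rule, with exact 95% intervals of counting error. COL14A1 lies past the 2-fold line in all 3 sets, and the type I and III genes pass it only when possible doublets are left out.

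Other splits of the thinned cardiomyocytes, chosen after the data were seen, moved few collagens past 2-fold. Cells with a UMI of TBX3, a transcription factor of the pacemaker lineage (2310 cells, against 2917 without), had 0 of 20 collagens higher and 1 lower (0.284% and 0.398% of all genes). This was again COL14A1, at 0.305 (0.246 to 0.375), and COL1A2 was at 0.517. Without Scrublet calls 3 were lower and 0 higher (0.576% and 0.299% of all genes): COL14A1 at 0.257, COL1A2 at 0.341 and COL1A1 at 0.499, with COL3A1 at 0.506. COL4A6 (1.40) and COL4A5 (1.28) were higher in TBX3 cells. For NKX2-5, a factor of working heart muscle (430 cells against 4797), 1 was higher and 0 lower (0.863% and 0.704%), COL2A1 at 2.06 (1.69 to 2.49). It was again the 1 gene past the limit without Scrublet calls, at 2.14 (background 1% higher and 0.863% lower). For the proliferation genes TOP2A or MKI67 (1192 cells against 4035), 1 was higher and 0 lower (3.74% and 0.0224%), COL9A1 at 3.16 (2.65 to 3.77) and 3.42 without Scrublet calls. COL14A1 was at 0.596 in that split, and at 0.463 without the calls, where 1 was higher and 1 lower (4.07% and 0.0681%). The same split of epithelial-like cells (1190 against 2680) had 0 of 17 higher and 0 lower (3.85% and 0.156%).

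Genes that process, cross-link, degrade or bind collagen were taken from 8 lists, and counts refer to members at 10 CPM or more. Ratios of these lists to cardiomyocytes, in all 3 other classes, were not recomputed without Scrublet calls. LUM stood at 400 CPM in the 175 thinned cardiomyocytes with 2 or more COL12A1 UMIs, against 24.8 CPM in the others. For every list in fibroblast-like cells over cardiomyocytes, the background was 12.6% of all genes higher and 11.3% lower. In fibroblast-like cells over cardiomyocytes, 10 of 13 genes for prolyl and lysyl modification were higher and 0 lower. P3H3, a prolyl 3-hydroxylase, led at 15.6 (56.5 against 3.63 CPM), with P3H2 at 6.87 and P4HA2, a subunit of the prolyl 4-hydroxylase that stabilises the helix, at 6.51. The lowest were PLOD2 at 1.51, P3H4 at 1.92 and CRTAP at 1.93. For folding and export, 6 of 12 were higher and 0 lower. CREB3L1, a transcription factor for secretory genes, led at 23.7, then SEC24D, a coat protein for large cargo, at 5.70 and SERPINH1, the collagen chaperone HSP47, at 4.66 (554 against 119 CPM). TMEM38B (0.715), MIA2 (0.951) and SEC23A (1.39) were lowest.

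Of the propeptide and cross-linking genes, 7 of 8 were higher and 0 lower. LOX, the enzyme that starts cross-linking, was at 60.7 (60.0 against 0.990 CPM), PCOLCE, which speeds propeptide removal, at 25.5, LOXL2 at 12.8, LOXL1 at 7.95 and the propeptidase BMP1 at 3.89, with TGM2 at 0.644. Breakdown genes had 7 of 9 higher and 2 lower, from MMP2 at 40.3, MMP14 at 21.0, MMP16 at 14.6 and TIMP1 at 3.85 to TIMP3 at 0.160 and MMP15 at 0.125. Of 4 collagen receptors, ITGA1 (22) and DDR2 (3.28) were higher, ITGB1 was at 1.64 and DDR1 lower at 0.238. Fibril-associated matrix genes had 19 of 21 higher and 0 lower, led by the small proteoglycans ASPN (195), BGN (115) and OGN (87.8). These 3 ratios rest on low cardiomyocyte levels of 0.903, 2.47 and 0.826 CPM. FBN2 (2.45), THBS1 (1.48) and TNC (0.719) were lowest.

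Basement membrane partners were more divided, with 5 of 12 higher and 3 lower. LAMC3 (30.9), LAMB1 (10.8) and NID2 (3.39) were highest, and LAMA2 (0.375), LAMB2 (0.311) and LAMA5 (0.264) lowest. LAMA2 and LAMB2, chains of the muscle laminins, stood at 117 and 149 CPM in cardiomyocytes, the class with the most COL4A5 and COL4A6. Of the TGF-beta list, 6 of 11 were higher and 0 lower, with TGFBI (15.3), PRRX1 (7.73) and TWIST1 (5.50) highest and LTBP3 (1.44), CCN1 (0.908) and TGFB2 (0.593) lowest.

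Epithelial-like cells, with their COL3A1, COL5A1 and COL12A1, had other partners. Over cardiomyocytes, 14.2% of all genes were higher and 13.2% lower. For modification 3 of 13 genes were higher and 0 lower, and for folding and export 3 of 12 and 1. Cross-linking had 3 of 8 higher and 0 lower, with LOXL2 at 10.9 (60.6 against 5.58 CPM). Fibril-associated genes had 8 of 21 higher and 10 lower, led by TNC, a glycoprotein of remodelling matrix, at 14.8 (112 against 7.56 CPM). Basement membrane partners had 5 of 12 higher and 4 lower, led by fibulin 1 (FBLN1) at 13.1 (1656 against 126 CPM). TGF-beta ligands and matrix regulators had 4 of 11 higher and 2 lower, led by TGFBI, a matrix protein induced by TGF-beta, at 12.4. Breakdown genes had 2 of 9 higher and 5 lower, and collagen receptors 0 of 4 higher and 2 lower. In epicardial-like cells, 5 of 13, 5 of 12 and 7 of 8 genes for modification, folding and cross-linking were higher and 0, 1 and 1 lower. They were led by P3H3 at 7.72, CREB3L1 at 15.7 and LOX at 32.1. POSTN, periostin, led the fibril-associated list there at 26.5 (471 against 17.8 CPM), with 11 of 21 higher and 4 lower. Beside these epicardial-like counts, 12.6% of all genes were higher and 11.5% lower than in cardiomyocytes.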

How the data were processed

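One culture was read as 2 libraries of the same cells, and the deposited matrix holds raw UMI counts per gene and per CD34 tag. The submitters' processing notes name Cell Ranger 6.1.2 and the GRCh38 build. Cell calling settings and the gene annotation are not given in the sources used here. All 14829 barcodes held 239181462 RNA UMIs. Python scripts (numpy 2.4.6, scipy 1.17.1, pandas 2.3.3, scanpy 1.11.5, matplotlib 3.10.9) summed UMIs per class, scaled them to CPM (UMIs scaled to a common RNA total) and formed ratios, called higher at 2 or more and lower at 0.5 or less. Genes needed a mean of 10 CPM over the classes compared. Intervals are exact Poisson (levels), Clopper-Pearson (shares) or conditional binomial (ratios), at 95%, and cover counting error only. A count of 0 allows up to 3 counts. Cells were thinned to 5000 UMIs for shares, leaving out 289 cardiomyocytes, 67 epithelial-like, 2 epicardial-like and 16 fibroblast-like cells. Near the cardiomyocyte cut, 172 cells lay within 10% of the TNNT2 limit. Scrublet, run on 12119 barcodes, called 1435 (11.8%) as doublets. The ratio scripts were tested on simulated counts. With 1 culture no test between groups was possible.

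Collagen members, gene lists and classes were chosen with earlier results of these data known. Collagens could all be named. In each pathway list the rule named the 3 highest and 3 lowest fibroblast-like over cardiomyocyte ratios and the highest member of each other class. Leaving out cardiomyocytes that met another marker rule, and the TBX3, NKX2-5 and proliferation splits, were chosen after seeing the data. Promoter stretches are from RefSeq on GRCh38.p14, which held windows for 32 of the 44 symbols. The other 12, COL1A1, COL1A2 and COL3A1 among them, were not analysed here for sequence.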

Additional observations from a re-analysis of the deposited data

Results flagged for a closer look

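Collagen transcripts were also present in barcodes that no comparison used. The 307 cells that met more than 1 marker rule gave 1.54% of their RNA to collagens, between the epicardial-like and fibroblast-like shares. Cells that met no rule (324) gave 0.674%, and the 449 between the TNNT2 limits 0.619%. Among barcodes outside the filter, the share was 0.305% with under 1000 genes (1975 barcodes), 0.362% over 25% mitochondrial UMIs (735) and 0.574% over 35000 RNA UMIs (908). COL3A1 stood at 950, 919 and 2000 CPM in these 3 sets and COL1A1 at 282, 233 and 875 CPM, beside MYL7 at 4234, 2708 and 5063 CPM. No control sample exists for them, and their makeup was not tested.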

How the results depend on the processing

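No paired analysis was possible because the 2 libraries are readouts of the same cells from 1 culture. The order of the collagen shares held under every alternative tried. In cardiomyocytes, epithelial-like, epicardial-like and fibroblast-like cells, they were 0.201%, 0.495%, 0.712% and 2.37% as means over cells, 0.200%, 0.495%, 0.723% and 2.37% after thinning, and 0.272%, 0.626%, 0.994% and 3.19% without mitochondrial and ribosomal genes. A mitochondrial limit of 15% gave 0.230% in cardiomyocytes and 0.486% in epithelial-like cells. No UMI limit gave 0.248% in cardiomyocytes, 0.714% in epicardial-like and 2.52% in fibroblast-like cells. The cardiomyocyte share was 0.176% without Scrublet calls, 0.174% without cells of another marker rule and 0.174% at 4000 CPM of TNNT2. A TNNT2 limit of 500 CPM gave 0.493% (epithelial-like) and 2.52% (fibroblast-like), doubled marker UMIs 0.816% (epicardial-like) and 2.54% (fibroblast-like), and keeping cells of more than 1 rule 0.504%, 1.20% and 2.40% in the 3 non-muscle classes.

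Of the collagens past 2-fold, 276 of 276 gene and setting pairs kept their side for fibroblast-like over cardiomyocytes, 199 of 204 for epicardial-like, 187 of 204 for epithelial-like and 249 of 264 for fibroblast-like over epicardial-like cells. The lower count of epicardial-like cells over cardiomyocytes was 1 without Scrublet calls, without cells of another rule, and with cells of more than 1 rule kept. Keeping those cells gave 10 higher and 2 lower for fibroblast-like over epicardial-like cells. At a floor of 50 CPM, fibroblast-like over cardiomyocytes had 12 and 1, epicardial-like 7 higher, epithelial-like 4 and 6, and fibroblast-like over epicardial-like and CD34-high over CD34-low 0 lower. At 1 CPM the lower counts over cardiomyocytes were 5, 8 and 16, and 4 for CD34. The CD34 contrast had 4 lower without Scrublet calls, 5 without cells of another rule, 3 with tag per RNA UMI, and 1 higher and 3 lower at 1.5-fold. Of the counts at changed settings here, a share over all genes was computed only for CD34 without Scrublet calls and without cells of another rule. The other counts have no background, and the floors also change how many collagens are compared. The log2 ratio of COL8A1, epithelial-like over cardiomyocytes, was -1.03, and 0.21 without Scrublet calls or 0.23 after thinning. With cells of more than 1 rule kept, COL12A1 went from -2.29 to 1.78 in epicardial-like cells over cardiomyocytes and from 2.95 to -0.37 in fibroblast-like over epicardial-like cells. The cause was not tested. Depth limits genes under a few CPM in the 234 epicardial-like cells, where 0 UMIs allow 0.614 CPM.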
